A study of Mus musculus with 79 samples.

Results

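Etv2, Tal1, Lmo2, Gata2, Kdr, Flt1, Tek, Tie1, Cdh5 and Pecam1 mark the earliest precursors of vessels and blood, and they are described here across sorted cells of the tail end of the mouse embryo. The 10 genes were taken by symbol from 3 tables of 23983 gene symbols each, and all 10 were found in every table. They fall into 4 transcription factors, 4 receptors and 2 adhesion proteins.

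Vessels and blood share mesodermal precursors, in which the ETS factor Etv2 starts the endothelial and blood programmes. The bHLH factor Tal1, its adaptor Lmo2 and the zinc finger factor Gata2 then form complexes on blood and endothelial genes. Vegfa signals through Kdr, with Flt1 as a decoy that limits it, angiopoietins signal through Tek with its partner Tie1, and Cdh5 and Pecam1 hold endothelial cells together. At the tail end of the embryo, neuro-mesodermal progenitors that hold both T (Brachyury) and Sox2 give rise to paraxial mesoderm and spinal cord, and vessel precursors lie in the mesoderm around them.

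The study compared the fates of neuro-mesodermal progenitors. Embryos came from ES cells by tetraploid complementation, embryos were pooled, and cells were sorted by flow cytometry. The sorted table holds T+, T+ Sox2+ and Sox2+ cells of wild-type (WT) C57BL/6N embryos at Theiler stage 12 (TS12). The knockout table holds T+ cells of T knockout embryos (T KO, T2J/2J, C57BL/6J) at TS13 and TS12 and of WT embryos (C57BL/6N) at the same stages. It also holds a pair of Tbx6+ libraries (both C57BL/6J) of TS14, whose titles and source names contradict each other on which one is Tbx6-/-, so they are called here by title, Tbx6 KO and WT. The third table holds 53 single cells with T and Sox2, from WT C57BL/6N embryos of TS13 and isolated in a Fluidigm C1 chip. Each bulk group is 1 library, so a difference between 2 libraries has no replicate check and no test. Strain cannot be told apart from genotype in the T KO pairs.

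Sequencing depth, estimated from the steps between low values, was 20.8 to 43.5 M fragments per bulk library. Levels are in FPKM, the fragments of a gene scaled to transcript length and to library size, so genes can be compared in level. For a transcript of 1 kb this gives a counting error of 6.78% to 9.81% at 5 FPKM and of 15.2% to 21.9% at 1 FPKM, so values well below 1 FPKM rest on few fragments. T was at 3.32 FPKM in T KO and 76.4 FPKM in WT cells at TS13, and at 4.61 FPKM in T KO and 69.8 FPKM in WT cells at TS12. Across the sorted fractions, T RNA was at 141 FPKM in T+, 341 FPKM in T+ Sox2+ and 192 FPKM in Sox2+ cells, so the Sox2+ fraction was not without T RNA. The T+ WT TS12 library stood apart from the rest: 1053 of 1487 olfactory, vomeronasal and taste receptor genes were above 0 in it, against 26 to 39 in the other bulk libraries.

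The sequence just before a transcription start is printed for Etv2, the first factor of the programme, for Tal1, for the receptor Kdr and for Tie1. These 4 genes, like several others of the 10, were highest in the same library of each bulk table. Those were T+ cells in the sorted table and WT T+ cells at TS13 in the knockout table. Tie1 stayed below 5 FPKM in every library. Each window is the 250 bases before the start on the gene's own strand, from RefSeq on build GRCm38.p6: chr7:30635853-30636102 on the minus strand for Etv2, chr4:115056176-115056425 on the plus strand for the first start of Tal1, chr5:75978456-75978705 on the minus strand for Kdr and chr4:118489850-118490099 on the minus strand for Tie1. The Etv2 and Kdr windows lie inside the annotated spans of their genes (chr7:30633616-30636509 and chr5:75932827-75979072). They therefore precede a start within the gene and not its outermost start. Capitals mark matches on either strand to the ETS words AGGAAG and CGGAAG or the GATA word AGATAA.
Etv2: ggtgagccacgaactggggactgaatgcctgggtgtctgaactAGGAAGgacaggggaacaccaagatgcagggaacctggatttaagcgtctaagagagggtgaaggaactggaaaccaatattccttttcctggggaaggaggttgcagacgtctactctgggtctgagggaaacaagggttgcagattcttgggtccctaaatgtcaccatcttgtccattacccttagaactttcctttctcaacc
Tal1: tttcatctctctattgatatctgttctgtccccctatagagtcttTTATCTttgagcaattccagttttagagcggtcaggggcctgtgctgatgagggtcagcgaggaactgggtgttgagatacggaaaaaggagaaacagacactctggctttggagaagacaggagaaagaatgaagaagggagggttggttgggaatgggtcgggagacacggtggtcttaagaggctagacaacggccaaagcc
Kdr: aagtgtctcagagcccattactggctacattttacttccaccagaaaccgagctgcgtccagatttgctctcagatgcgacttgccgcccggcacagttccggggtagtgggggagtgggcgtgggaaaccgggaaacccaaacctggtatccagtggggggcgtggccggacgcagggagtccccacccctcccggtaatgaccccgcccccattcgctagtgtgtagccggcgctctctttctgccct
Tie1: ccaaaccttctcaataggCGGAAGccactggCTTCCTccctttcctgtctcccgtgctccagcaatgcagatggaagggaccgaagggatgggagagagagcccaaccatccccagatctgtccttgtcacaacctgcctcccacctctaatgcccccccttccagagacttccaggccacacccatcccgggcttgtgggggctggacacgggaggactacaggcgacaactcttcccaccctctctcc
The Etv2 window holds 1 ETS word, the Tie1 window 2 ETS words on opposite strands, the Tal1 window 1 GATA word and the Kdr window none of them. RefSeq windows were at hand for 9 starts of 7 of the genes (Etv2, Tal1, Gata2, Kdr, Flt1, Tek and Tie1), while Lmo2, Cdh5 and Pecam1 are named only. An ETS word lay in 3 of the 9 windows (Etv2, Flt1 and Tie1), against 39.2% of all 32851 windows. The GATA word lay in 1 of 9, against 9.99% of all windows, and the E-box words CAGCTG or CATCTG lay in 2 of 9 (Kdr and Tie1), against 25.5%. The forkhead word GTAAACA lay in 0 of 9, against 3.17%. With 9 windows these shares describe the sequences and say nothing of which factor binds there.

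Among the sorted WT cells, all 10 genes were highest in the T+ fraction. Their order of level there ran from Lmo2 through Cdh5, Tal1, Kdr, Pecam1, Etv2, Flt1, Tek and Tie1 to Gata2, and with 1 library per fraction the spread between neighbours in that order is unknown. Among the transcription factors, Lmo2 and Etv2 were also found in T+ Sox2+ cells, Tal1 was near the floor outside T+ cells and Gata2 was low in all. Tal1, the bHLH factor of early blood and endothelium, was at 9.83 FPKM in T+, 0.326 FPKM in T+ Sox2+ and 0.183 FPKM in Sox2+ cells. Lmo2, the adaptor that joins Tal1 to GATA factors, was at 83.0 FPKM in T+, 57.6 FPKM in T+ Sox2+ and 16.1 FPKM in Sox2+ cells. Lmo2 was thus the highest of the 10 in every fraction and followed a graded order, whereas Tal1 dropped between the T+ fraction and both others. Etv2, which starts the endothelial programme, was at 4.00 FPKM in T+, 2.42 FPKM in T+ Sox2+ and 0.567 FPKM in Sox2+ cells, an order like that of Lmo2. Gata2, a factor of blood stem and progenitor cells, was low throughout, at 1.46 FPKM in T+, 0.636 FPKM in T+ Sox2+ and 0.485 FPKM in Sox2+ cells.

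The receptors and adhesion genes were highest in T+ cells and near the floor in the other fractions. Kdr, the main signalling receptor for Vegfa, was at 8.77 FPKM in T+, 1.06 FPKM in T+ Sox2+ and 0.340 FPKM in Sox2+ cells. Flt1, which binds Vegfa and limits its signal, was at 2.80 FPKM in T+, 0.198 FPKM in T+ Sox2+ and 0.0446 FPKM in Sox2+ cells. Both VEGF receptors therefore followed the order T+, T+ Sox2+, Sox2+. Tek, the angiopoietin receptor, was at 2.30 FPKM in T+, 0.0472 FPKM in T+ Sox2+ and 0.754 FPKM in Sox2+ cells. Tie1, its partner, was at 1.49 FPKM in T+, 0.210 FPKM in T+ Sox2+ and 0.0812 FPKM in Sox2+ cells. Among the angiopoietin pair, Tek was lowest in the double positive cells and Tie1 in the Sox2+ cells, all at values below 1 FPKM. Cdh5, the cadherin of endothelial junctions, was at 14.5 FPKM in T+, 0.205 FPKM in T+ Sox2+ and 1.11 FPKM in Sox2+ cells. Pecam1, an endothelial adhesion protein, was at 5.70 FPKM in T+, 0.0661 FPKM in T+ Sox2+ and 0.328 FPKM in Sox2+ cells. For Tek, Cdh5 and Pecam1 the double positive library was the lowest of the 3, and for the other 7 genes the Sox2+ library was.

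**Figure D1:**
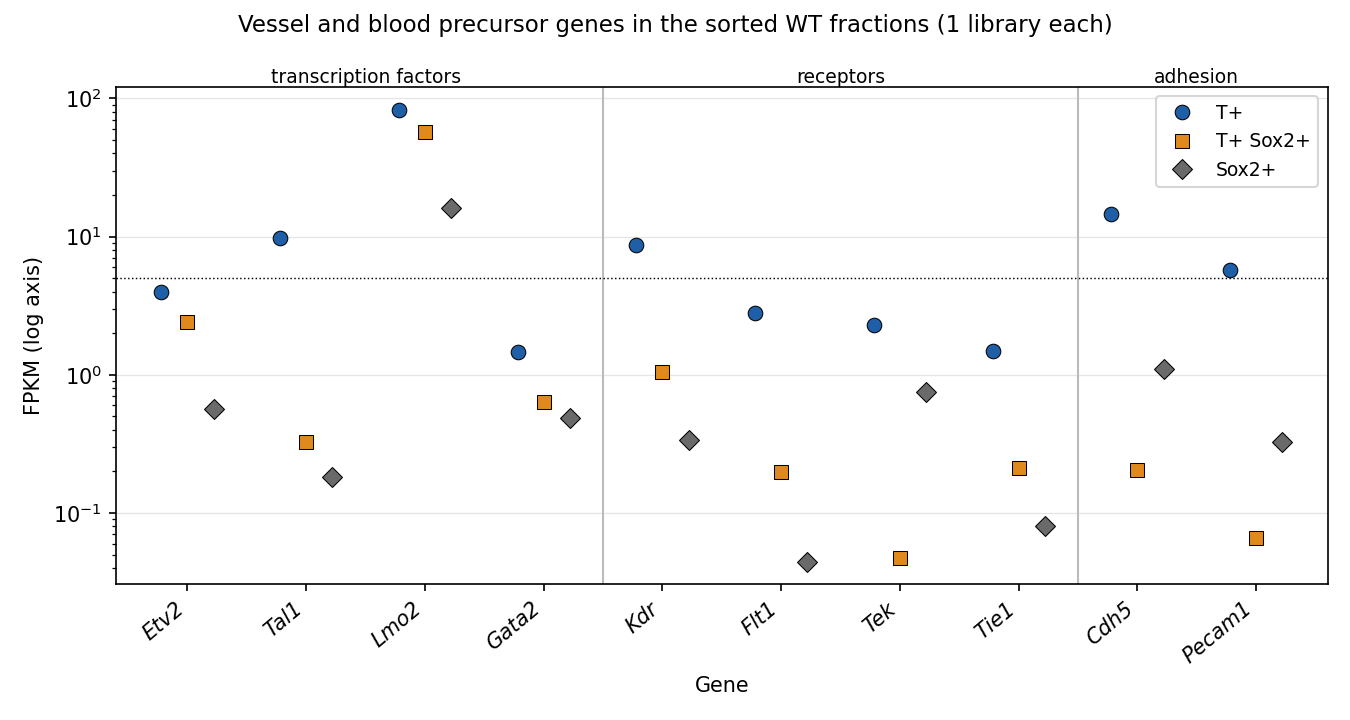
FPKM on a log axis of the 10 genes in the T+, T+ Sox2+ and Sox2+ libraries of WT embryos at TS12, 1 point per library, with the dotted line at the minimum of 5 FPKM. Every T+ point lies above the other 2 points of its gene, and Lmo2 alone is above 5 FPKM in all 3 fractions.

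Differences between libraries were taken on log2(FPKM + 1), which understates the change of low genes, and called where the size was at least 1 (a 2-fold difference) and 1 library reached 5 FPKM. In T+ relative to Sox2+ cells the differences were 3.20 for Tal1, 2.88 for Cdh5, 2.87 for Kdr, 2.33 for Pecam1 and 2.29 for Lmo2, and these 5 genes were called higher. Over all genes tested, 3.65% of 8386 were called higher in T+. The other 5 genes reached 5 FPKM in neither library and had differences of 0.73 to 1.86. The median over all 10 was 2.08, against 0.01 over all genes tested. In T+ relative to T+ Sox2+ cells, Cdh5 differed by 3.69, Tal1 by 3.03, Pecam1 by 2.65 and Kdr by 2.25, so 4 of 10 were called higher, where 1.88% of 8293 genes were. All 10 differences were above 0 there, with a median of 1.66 against 0.02 over all genes tested. Both contrasts share the T+ library, so their directions are not separate evidence. In T+ Sox2+ relative to Sox2+ cells only Lmo2 was called, higher by 1.77, where 1.51% of 8273 genes were called higher, and 3 of the 10 (Tek, Cdh5 and Pecam1) were below 0. Etv2 differed by 1.12 in that contrast without reaching 5 FPKM. In bulk libraries, fewer cells of a type and less RNA per cell cannot be told apart.

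Other endothelial genes were mostly higher in T+ cells too, and the ligand Vegfa was not. Of 20 other endothelial surface genes, all 20 were above 0 in T+ relative to Sox2+ cells, and 5 were called higher, among them Plvap (11.5 FPKM in T+, 1.01 FPKM in Sox2+ cells) and Cd34 (6.22 FPKM in T+, 0.312 FPKM in Sox2+ cells). Of 17 other endothelial factors and partners, 7 were called higher in T+ relative to Sox2+ cells, led by Foxc2 with 27.5 FPKM in T+ and 1.32 FPKM in Sox2+ cells. The ETS factor Fli1 was at 6.92 FPKM in T+, 0.622 FPKM in T+ Sox2+ and 0.639 FPKM in Sox2+ cells. The partners Tcf3 and Ldb1, which most cells use, were at 85.8 and 91.7 FPKM in T+, at 87.0 and 75.4 FPKM in T+ Sox2+ and at 88.6 and 86.9 FPKM in Sox2+ cells. No fraction was low in either partner. Of 14 ligands, co-receptors and partner receptors, 5 were called higher and 1 lower in T+ relative to Sox2+ cells. The lymphatic and early vessel receptor Flt4 was at 5.56 FPKM in T+ and 0.551 FPKM in Sox2+ cells, and the co-receptor Nrp2 was at 7.99 FPKM in T+ and 30.1 FPKM in Sox2+ cells. Vegfa, the ligand of Kdr and Flt1, was at 22.5 FPKM in T+, 22.7 FPKM in T+ Sox2+ and 22.9 FPKM in Sox2+ cells. Of 15 blood precursor genes, only 2 reached 5 FPKM in T+ or Sox2+ cells and could be called. Of these, Gata1 was called higher in T+ cells, at 9.96 FPKM in T+ and 0.110 FPKM in Sox2+ cells. Of all 15, 9 were above 0 and 2 below 0 in T+ relative to Sox2+ cells. Without the minimum, 4 were at least 2-fold higher and 0 lower.

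Red cell and lateral plate markers moved with the 10 genes across the sort, and presomitic markers did so only in part. The embryonic alpha-like globin Hba-x, which defines primitive red cells, was at 5119 FPKM in T+, 40.6 FPKM in T+ Sox2+ and 87.3 FPKM in Sox2+ cells, and 9 of 10 red cell genes were called higher in T+ relative to Sox2+ cells. The summed level of the red cell genes was 12084 FPKM in T+, 147 FPKM in T+ Sox2+ and 272 FPKM in Sox2+ cells. All 11 lateral plate genes were above 0 in T+ relative to Sox2+ cells, and their summed level was 189 FPKM in T+, 30.2 FPKM in T+ Sox2+ and 11.6 FPKM in Sox2+ cells. None of the defining markers of either list was at 0 in the T+ library. Of 10 presomitic genes, leaving out Tbx6, all 10 were above 0 in T+ relative to Sox2+ cells, but 7 were below 0 in T+ relative to T+ Sox2+ cells, with a median of -0.24. The presomitic factor Msgn1 was at 76.5 FPKM in T+, 112 FPKM in T+ Sox2+ and 19.3 FPKM in Sox2+ cells. The part of these cells in the values of the 10 genes was not tested.

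In T+ cells of the knockout table, T KO libraries held the 10 genes mostly at lower levels. Strain differed along with genotype in these libraries. Lmo2 alone passed the test of genotype, in a fit over all 4 libraries, and the call was lost when any 1 of them was left out. At TS13, Lmo2 was at 12.9 FPKM in T KO and 34.9 FPKM in WT cells, and at TS12 it was at 19.5 FPKM in T KO and 32.8 FPKM in WT cells. Both T KO values lay below both WT values. Kdr was at 20.8 FPKM in T KO and 40.4 FPKM in WT cells at TS13, and at 25.3 FPKM in T KO and 31 FPKM in WT cells at TS12. The Kdr values did not overlap between genotypes either, and it was the highest of the 10 genes in 3 of the 4 libraries, Lmo2 being higher in WT cells at TS12. Etv2 was at 8.00 FPKM in T KO and 13.9 FPKM in WT cells at TS13, and at 7.16 FPKM in T KO and 6.26 FPKM in WT cells at TS12. Tal1 was at 4.65 FPKM in T KO and 7.91 FPKM in WT cells at TS13, and at 3.65 FPKM in T KO and 4.56 FPKM in WT cells at TS12. Gata2 was at 1.07 FPKM in T KO and 2.58 FPKM in WT cells at TS13, and at 1.96 FPKM in T KO and 1.95 FPKM in WT cells at TS12. For Etv2, Tal1 and Gata2 the genotypes overlapped, the WT TS13 library being the high one of the 4.

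Flt1 was the receptor with the nearest values between genotypes, at 3.58 FPKM in T KO and 3.60 FPKM in WT cells at TS13, and at 3.05 FPKM in T KO and 2.71 FPKM in WT cells at TS12. Tek was at 3.94 FPKM in T KO and 6.33 FPKM in WT cells at TS13, and at 4.48 FPKM in T KO and 7.34 FPKM in WT cells at TS12. Tie1 was at 1.27 FPKM in T KO and 2.19 FPKM in WT cells at TS13, and at 1.34 FPKM in T KO and 2.1 FPKM in WT cells at TS12. For Tek and Tie1 both T KO values lay below both WT values. Cdh5 was at 4.44 FPKM in T KO and 9.08 FPKM in WT cells at TS13, and at 4.42 FPKM in T KO and 4.82 FPKM in WT cells at TS12. Pecam1 was at 2.36 FPKM in T KO and 4.65 FPKM in WT cells at TS13, and at 1.41 FPKM in T KO and 4.34 FPKM in WT cells at TS12. The T KO and WT values of both adhesion genes did not overlap, although for Cdh5 at TS12 they lay close. In all, 6 of the 10 genes (Lmo2, Kdr, Tek, Tie1, Cdh5 and Pecam1) had both T KO values below both WT values, as had 21.4% of 11262 genes that reached 1 FPKM in any of these libraries.

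**Figure D2:**
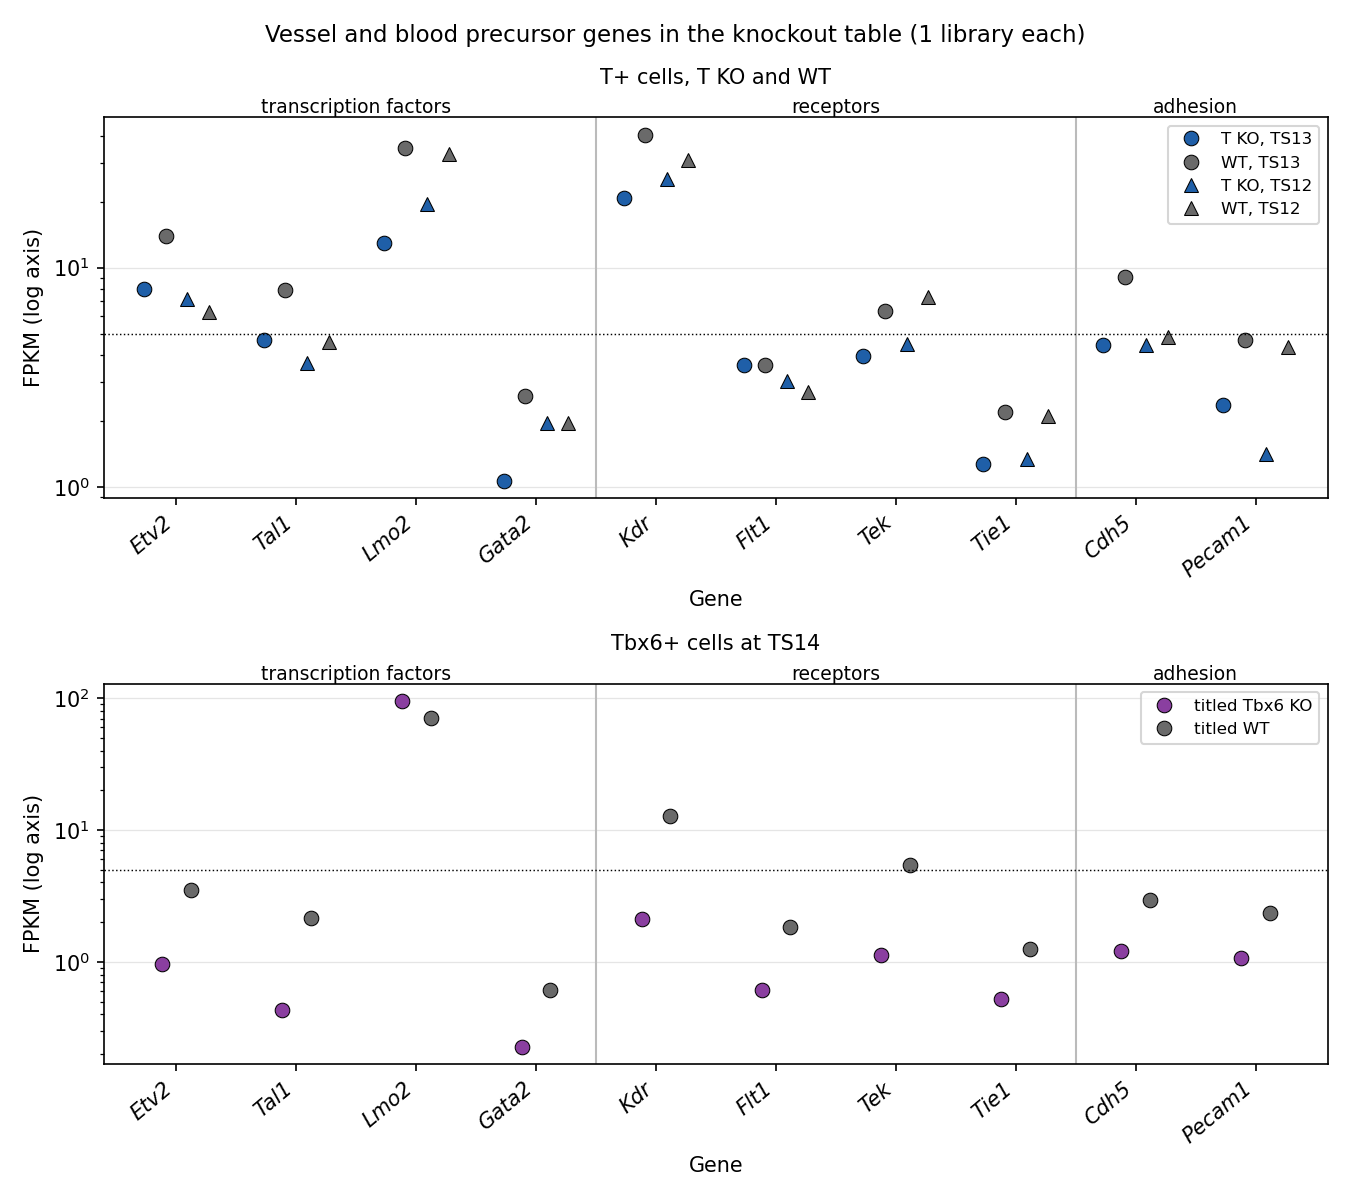
FPKM on a log axis of the 10 genes, 1 point per library, with the dotted line at 5 FPKM. The upper panel shows T+ cells of T KO and WT embryos at TS13 and TS12, where Lmo2 and Kdr are lower in both T KO libraries, and the lower panel the Tbx6+ pair at TS14, where Lmo2 alone is higher in the library titled Tbx6 KO.

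At TS13 the T KO minus WT difference was below 0 for all 10 genes, although that of Flt1, at -0.01, turned to 0.02 when libraries were scaled to their upper quartile. Lmo2, at -1.37, was the 1 gene called, where 1.48% of 7955 genes were called lower. The next were Kdr at -0.92, Cdh5 at -0.89, Gata2 at -0.79 and Pecam1 at -0.75. The median over the 10 was -0.74, against -0.04 over all genes tested. At TS12 no gene of the 10 was called, where 2% of 7867 genes were called in either direction, and the median was -0.27, against 0.03 over all genes tested. Pecam1 differed by -1.15 there, with both libraries below 5 FPKM, Lmo2 by -0.73 and Tek by -0.61. The WT library of that pair is the T+ WT TS12 library that stood apart.

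Genotype, which cannot be told apart from strain here, could be tested only by a limma fit over these 4 T+ libraries. Stage was a second term in it, and 1 residual degree of freedom remained. Of 8189 genes tested, 0.855% fell and 0.659% rose in T KO cells at an adjusted p under 0.05. Of the 10, 6 reached the minimum of 5 FPKM, all 6 had fold changes below 0, and only Lmo2 fell. Lmo2 had a log2 fold change of -1.05 (SE 0.176, 95% interval -1.44 to -0.66) with a limma adjusted p of 0.0165. The call was lost with stage left out of the fit (limma adjusted p 0.176) and without limma's trend (0.0594). It was also lost when any 1 of the 4 libraries was left out, which removes the stage term too: the limma adjusted p was 0.387 without WT TS12, 0.288 without WT TS13, 0.365 without T KO TS13 and 0.0971 without T KO TS12, at log2 fold changes of -1.32 to -0.77. Kdr had a log2 fold change of -0.60 (SE 0.176) and a limma adjusted p of 0.156, Tek one of -0.59 (SE 0.215) and 0.273. For Cdh5, Tal1 and Etv2 the log2 fold changes were -0.50, -0.46 and -0.28 with limma adjusted p of 0.446 to 0.638, so no difference was detectable with these libraries. Nothing in the labels says that the 4 libraries are repeats of one another, and the p-values measure what stage and genotype leave over.

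Of other genes in that fit, the apelin receptor Aplnr (log2 fold change -0.88, limma adjusted p 0.0230) and the factor Foxc1 (-1.43, 0.00583), a regulator of paraxial and vessel mesoderm, fell. Nrp2 (0.84, limma adjusted p 0.0248) rose. None of 6 endothelial surface genes and none of 7 red cell genes tested passed, at unadjusted p under 0.05 in 0 and 2 of them. Over all 8189 genes tested, 12.6% had an unadjusted limma p under 0.05 for genotype. Of 7 lateral plate genes tested, Foxf1 (-1.24, limma adjusted p 0.00247) and Osr1 (-1.21, 0.0444) fell. Of 8 presomitic genes tested 6 fell, led by Msgn1 at -4.01 (limma adjusted p 1.61e-06). Of the neural genes tested, all 5 had an unadjusted p under 0.05, 3 of them above 0, and Sox3, a neural progenitor factor, rose (1.61, limma adjusted p 0.0165). At TS13 the neural factor Sox1 was at 9.98 FPKM in T KO and 0.569 FPKM in WT cells, and Sox2 at 43.5 FPKM in T KO and 12 FPKM in WT cells. All 7 red cell genes tested were below 0, with a median of -0.36. At TS13 9 of 10 red cell genes were below 0, and their summed level was 1853 FPKM in T KO and 2378 FPKM in WT cells. At TS12 8 of 10 were below 0, with sums of 433 FPKM in T KO and 838 FPKM in WT cells. The lateral plate genes summed to 65.6 FPKM in T KO and 121 FPKM in WT cells at TS13, with all 11 below 0, and to 97.4 FPKM in T KO and 126 FPKM in WT cells at TS12. The part of these other cell types in the values of the 10 genes was not tested.

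Between stages, 1 of the 10 genes was called in WT cells and none in T KO cells. In WT T+ cells the difference of TS13 minus TS12 was 1.03 for Etv2, the 1 gene called, where 0.961% of 7802 genes were called higher. That call rests on the T+ WT TS12 library that stood apart, and it was lost with upper-quartile scaling (0.99) and with a pseudocount of 5 (0.74). It was 0.79 for Cdh5 and 0.68 for Tal1, and between -0.19 and 0.37 for the other 7. The median over the 10 was 0.30, against 0.05 over all genes tested. In T KO cells none of the 10 was called, where 1.5% of 7922 genes were called in either direction, and the differences ran from -0.55 for Lmo2 to 0.48 for Pecam1. In the limma fit over both genotypes, 0 of the 6 members tested changed with stage and 1 had an unadjusted p under 0.05, where 0.256% of 8189 genes were called and 9.04% had an unadjusted p under 0.05. That gene was Etv2, with a log2 fold change of 0.59 (SE 0.222) and a limma adjusted p of 0.443. In the same fit 4 of 7 red cell genes rose with stage, among them Hbb-y, an embryonic beta-like globin, with a log2 fold change of 2.80 and a limma adjusted p of 8.08e-05. Whether the red cell genes and the vessel genes differed in their change with stage was not tested.

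In the Tbx6+ pair of TS14, 9 of the 10 genes were lower in the library with the title Tbx6 KO than in the one with the title WT, and Lmo2 was higher. Tbx6 itself was at 10.2 FPKM in Tbx6 KO-titled and 31.5 FPKM in WT-titled cells. Kdr was at 2.11 FPKM in Tbx6 KO-titled and 12.8 FPKM in WT-titled cells, and Tek at 1.12 FPKM in Tbx6 KO-titled and 5.47 FPKM in WT-titled cells. These were the 2 genes called, with differences of -2.15 for Kdr and -1.61 for Tek, where 1.59% of 7723 genes were called lower. Etv2 was at 0.965 FPKM in Tbx6 KO-titled and 3.48 FPKM in WT-titled cells, and Tal1 at 0.435 FPKM in Tbx6 KO-titled and 2.16 FPKM in WT-titled cells. Their differences were -1.19 and -1.14, with both genes under the minimum in both libraries. Gata2 was at 0.227 FPKM in Tbx6 KO-titled and 0.613 FPKM in WT-titled cells. Flt1 was at 0.611 FPKM in Tbx6 KO-titled and 1.82 FPKM in WT-titled cells, and Tie1 at 0.521 FPKM in Tbx6 KO-titled and 1.25 FPKM in WT-titled cells. Cdh5 was at 1.21 FPKM in Tbx6 KO-titled and 2.96 FPKM in WT-titled cells, and Pecam1 at 1.07 FPKM in Tbx6 KO-titled and 2.36 FPKM in WT-titled cells. The 7 genes from Etv2 to Pecam1 that were not called were thus low in both libraries and lower in the one titled Tbx6 KO.

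Lmo2 was at 95.4 FPKM in Tbx6 KO-titled and 70.3 FPKM in WT-titled cells, a difference of 0.43. Those were its highest 2 values in the knockout table, whereas the other 9 genes together summed to 8.27 FPKM in Tbx6 KO-titled and 32.9 FPKM in WT-titled cells, below the 50.1 to 90.6 FPKM of the T+ libraries. The median over the 10 was -0.83, against -0.04 over all genes tested. In Tbx6 KO-titled relative to WT-titled cells, 18 of 20 endothelial surface genes were below 0, and all 11 lateral plate genes were below 0, with sums of 18 FPKM in Tbx6 KO-titled and 56.6 FPKM in WT-titled cells. Red cell genes went the other way: all 10 were above 0, and Hba-x was at 27.1 FPKM in Tbx6 KO-titled and 0.0487 FPKM in WT-titled cells. The angiopoietin ligand Angpt1 was at 34.3 FPKM in Tbx6 KO-titled and 9.66 FPKM in WT-titled cells, opposite in direction to its receptor Tek. Of 10 presomitic genes 9 were below 0 and 5 were called lower, among them Pcdh19 with 0.213 FPKM in Tbx6 KO-titled and 19.2 FPKM in WT-titled cells, and Meox1 with 0.781 FPKM in Tbx6 KO-titled and 16.8 FPKM in WT-titled cells. Sox2 was at 42.3 FPKM in Tbx6 KO-titled and 4.70 FPKM in WT-titled cells, and T at 471 FPKM in Tbx6 KO-titled and 166 FPKM in WT-titled cells. The part of these other cell states in the values of the 10 genes was not tested.

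**Figure D3:**
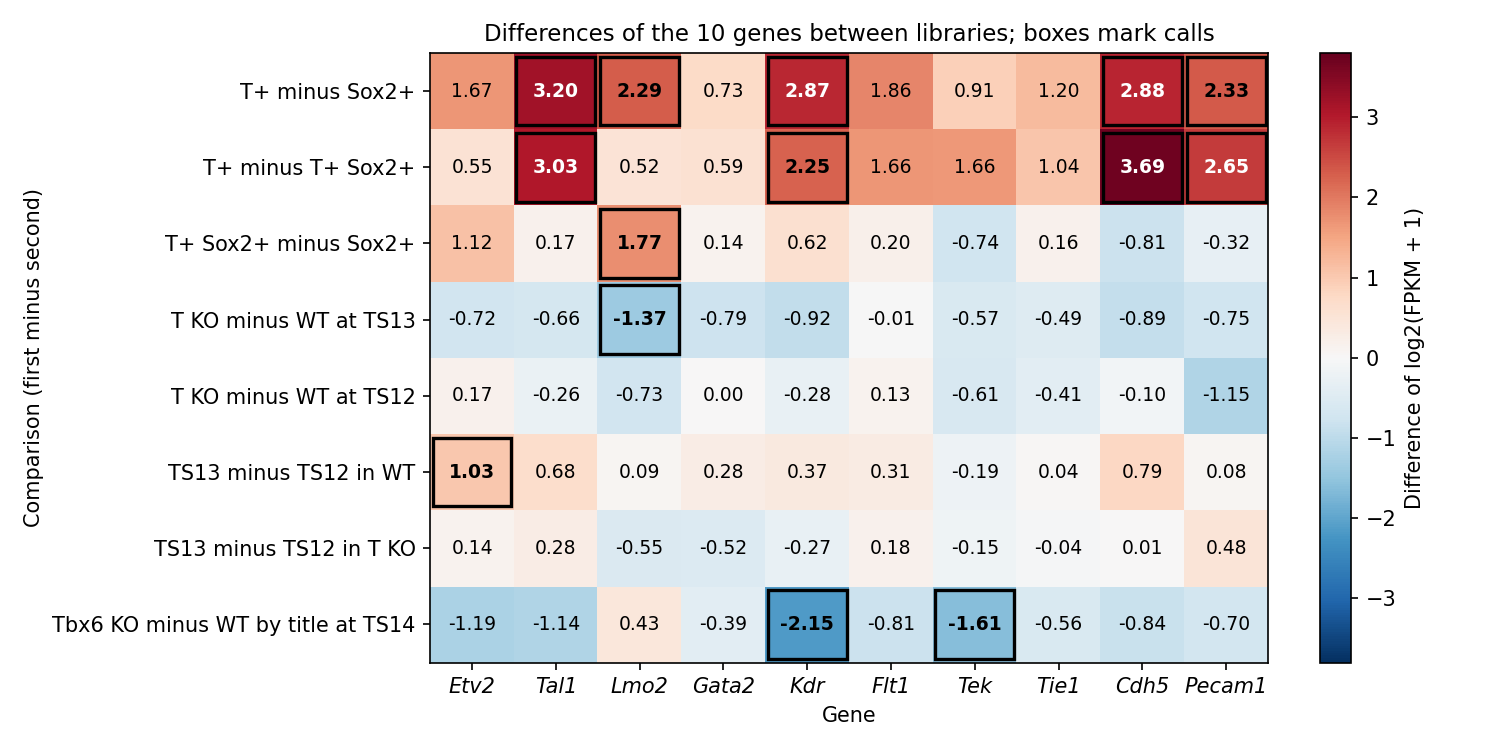
Differences of log2(FPKM + 1) of the 10 genes (columns) in the 8 comparisons of libraries (rows), red for higher and blue for lower in the first-named group, with boxes around called differences. The first 2 rows are red throughout, and Lmo2 alone is boxed in the row of T+ Sox2+ minus Sox2+ and alone above 0 in the row of the Tbx6+ pair.

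Apart from Lmo2, the genes varied together over the 9 bulk libraries. Taken as deviations from the mean of each table, the correlation of each gene with the mean of the other 9 was 0.99 for Tie1, 0.98 for Tal1, 0.94 for Flt1, 0.93 for Kdr, 0.92 for Cdh5, 0.91 for Pecam1, 0.83 for Tek, 0.82 for Gata2 and 0.79 for Etv2. It was -0.09 for Lmo2, and -0.65 over the 6 libraries of the knockout table. These are descriptions over 9 libraries that share tables and cell sorts, with no test. Among 7896 other genes with at least 5 FPKM in 1 library of each table, those most like the mean of the 10 were B4galt6 (r 0.98), Plvap (0.98), Fli1 (0.97), Sox7 (0.97), Peg10 (0.96), Dok4 (0.96), Foxf1 (0.96), Pdlim7 (0.96), Hand2 (0.95) and Osr1 (0.95). Plvap, Fli1 and Sox7 belong to the endothelial lists and Foxf1, Hand2 and Osr1 to the lateral plate list. Over the knockout table alone, 1 of these 10 (Plvap) was among the nearest 10.

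Single T+ Sox2+ cells held Lmo2, Gata2, Etv2 and Kdr in part of the cells, and the other 6 genes, Tal1 among them, in 2 cells or fewer. A gene was counted in a cell at 1 FPKM or more, and cells had a median of 5902 such genes (4075 to 9001). T was at that level in 53 of the 53 cells and Sox2 in 46. Lmo2 was in 40 cells (75.5%, exact 95% interval 61.7% to 86.2%), with a median of 23.3 FPKM among them and a highest value of 239 FPKM. Of 19739 genes kept, 3415, Lmo2 included, were in at least as many cells. Gata2 was in 15 cells (28.3%, 16.8% to 42.3%), mostly at low levels, with a median of 4.39 FPKM among them and a highest value of 56.7 FPKM. Etv2 was in 13 cells (24.5%, 13.8% to 38.3%), with a median of 15.9 FPKM among them and a highest value of 147 FPKM. Kdr was in 12 cells (22.6%, 12.3% to 36.2%), with a median of 13.0 FPKM among them and a highest value of 51.0 FPKM. The intervals of Gata2, Etv2 and Kdr overlap, so their order is not settled by these cells. Pecam1 was in 2 cells, Cdh5 and Tal1 in 1 cell each, and Flt1, Tek and Tie1 in 0 of 53 cells. For 0 of 53 cells the exact 95% interval reaches 6.72%, and a simple upper limit of 3 in 53 is 5.66%. The intervals and this upper limit cover counting error only, and RNA missed in capture is not in them. They also treat the cells as 1 group, although the cells differed by capture site. All 13 cells with Etv2 had capture sites from CS21 to CS47. The cells at CS90 to CS95 held no Lmo2, Etv2 or Kdr and had 4075 to 5476 genes at 1 FPKM or more. The part of capture site and of detection in these shares was not tested.

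The genes combined only in part within cells. Of the 53 cells, 9 held none of the 10 genes, 18 held 1, 15 held 2, 8 held 3 and 3 held 4. A gene other than Lmo2 was in 29 cells, and a receptor or adhesion gene in 14. All 13 cells with Etv2 also held Lmo2, which was in 40 of the 53. Etv2 and Kdr were together in 3 cells, 13 and 12 cells holding each. In these 3 cells Etv2 was at 147, 15.9 and 3.87 FPKM and Kdr at 30.5, 18.8 and 1.58 FPKM in the same order. The cell with the highest Kdr, 51.0 FPKM, held Gata2 at 22.5 FPKM and was the 1 cell with Tal1, at 3.91 FPKM, with Etv2 and Lmo2 at 0. The 3 cells with 4 of the genes had 6492, 7750 and 9001 genes detected, above the median of 5902, and the part of detection in these combinations was not tested.

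**Figure D4:**
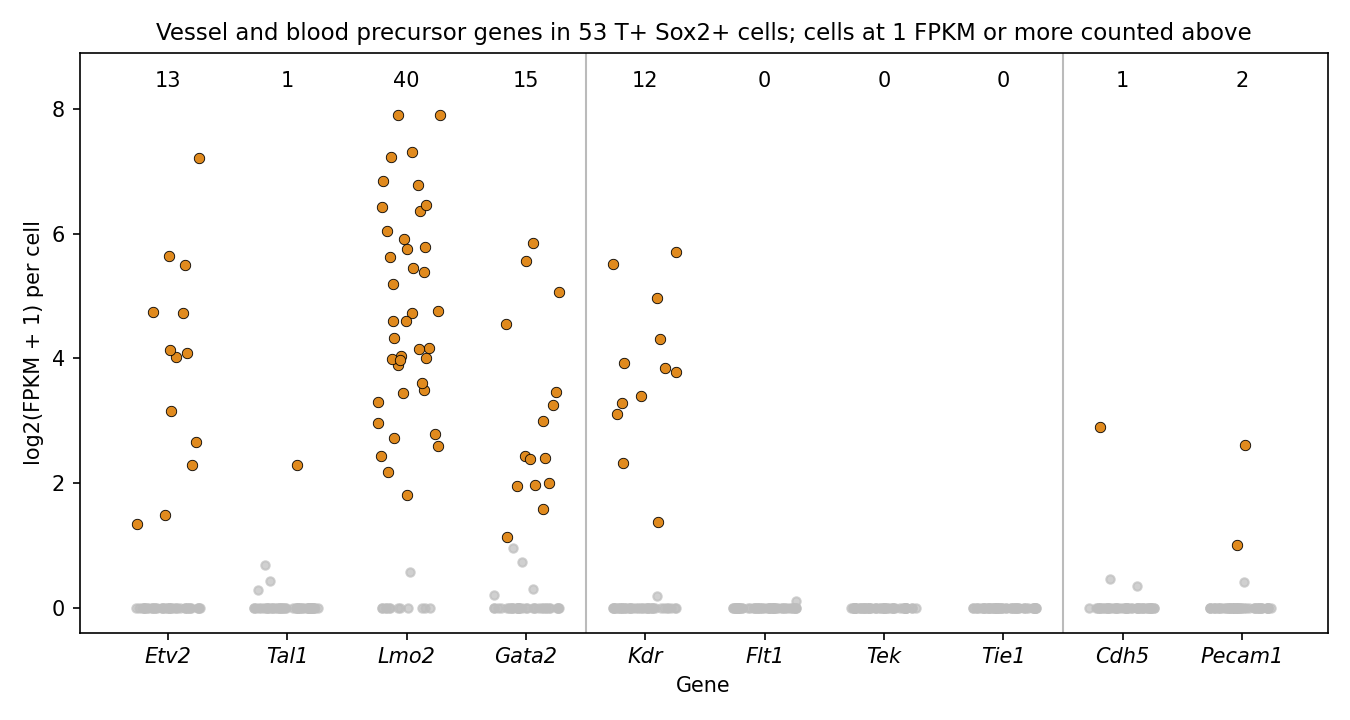
log2(FPKM + 1) of the 10 genes in the 53 single cells, 1 point per cell with a sideways jitter; coloured points are at 1 FPKM or more and their number stands above. Lmo2 is found in 40 cells, Gata2, Etv2 and Kdr in 12 to 15, and the other 6 genes in 0 to 2.

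Many genes of vessel, blood and red cells were found in no cell, and others of the same lists were found. The globins Hba-x, Hbb-bh1 and Hbb-y were in 0 of 53 cells, as were Gata1, Runx1, Cd34 and Fli1. By list, 10 of 20 endothelial surface genes, 11 of 15 blood precursor genes and 6 of 10 red cell genes were in no cell. Of all 19739 genes kept, 12589 were in at least 1 cell, so absence from all cells was common among other genes too. Of the other red cell genes, Tfrc was in 47 cells, Epor in 7, Alas2 in 5 and Klf1 in 1. Egfl7, made by endothelium and by some precursors, was in 14 cells and Rasip1 in 11. The partners Tcf3 and Ldb1 were in 53 and 52 cells, the ligand Vegfa in 37 and the receptor tyrosine kinase Kit, which early blood precursors share with other cells, in 39. Lateral plate genes were common, Foxf1 in 46 cells, Hand1 in 36 and Osr1 in 34. In the bulk T+ Sox2+ library of TS12, made with another kit, Lmo2 was first in level, then Etv2, Kdr and Gata2, at 57.6, 2.42, 1.06 and 0.636 FPKM. The mean levels over the 53 cells had the same order, at 37.0, 6.79, 4.09 and 3.96 FPKM. By number of cells the order differed, Gata2 being in more cells than Etv2 or Kdr.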

How the data were processed

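RNA was measured in 9 bulk libraries and 53 single cells (the labels name 55 capture sites); the chromatin data are not analysed here. Sorted fractions were made with TotalScript (RNA of about 2500 cells isolated, 1000 cells' worth used, 14 cycles) and the knockout table with ScriptSeq v2 after ribosomal RNA depletion (about 20000 cells, 15 cycles), per the labels' protocols. The authors deposited FPKM values on mm10, and the submitters' processing notes name TopHat2 2.1.0, Bowtie 1.1.2 and Cufflinks 2.2.1. How libraries were scaled to each other, and on which annotation, is not given in the sources used here, so the 3 tables were read separately. Several of the genes overlap a numbered noncoding gene (Tal1, Lmo2, Gata2, Kdr, Flt1 and Cdh5), and how such reads were assigned is not stated.

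Small RNAs, gene models, mitochondrial and ribosomal pseudogene symbols were left out of counts over all genes (19739 kept), as were T, Sox2 and Tbx6. Differences of log2(FPKM + 1) between single libraries were called at a size of 1 with at least 5 FPKM in 1 library. The fit used limma 3.58.1 in R 4.3.3 (empirical Bayes with trend, Benjamini-Hochberg adjustment over 8189 genes, called at 0.05). Its code was tried on simulated data with independent noise, which gives no error rate for the calls in these libraries. Cells were counted at 1 FPKM, with exact Clopper-Pearson 95% intervals from scipy 1.17.1. Named were the 10 genes, from each other list up to 3 of the largest called differences per comparison, and the 10 genes most alike; other genes were named after their values were seen. The 10 genes and all lists were chosen with earlier results of these data known. Other pseudocounts, minimums and scalings were tried, and each T+ library was left out of the fit of genotype in turn.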

Additional observations from a re-analysis of the deposited data

Results flagged for a closer look

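For 6 genes the direction of at least 1 effect turned between the stages or between the genotypes. The T KO minus WT difference was lower at TS13 than at TS12 for all 6. Turns in the directions given below fix that sign, so the shared sign is not a separate result. With 1 library per group these differences were not tested. The difference at TS13 minus that at TS12, on the log2(FPKM + 1) scale, was -0.89 for Etv2, -0.80 for Gata2, -0.64 for Kdr, -0.64 for Lmo2, -0.13 for Flt1 and -0.086 for Tie1. For Etv2, Gata2 and Flt1 the genotype effect was below 0 at TS13 and above 0 at TS12, for Gata2 at TS12 by less than 0.01. For Lmo2, Gata2, Kdr and Tie1 the stage effect was below 0 in T KO and above 0 in WT cells, for Tie1 at -0.044 in T KO and 0.042 in WT cells. All 6 values rest on the T+ WT TS12 library, which stood apart from the rest. The genes without a turn, whose values rest on it too, were at -0.79 for Cdh5, -0.40 for Tal1, 0.04 for Tek and 0.40 for Pecam1.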

How the results depend on the processing

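No paired analysis was possible because each bulk group has 1 library and no replicate numbers are shared. Called genes among the 10 changed with the minimum of 5 FPKM. Without it, 8 instead of 5 were called in T+ relative to Sox2+, 7 instead of 4 in T+ relative to T+ Sox2+, 2 instead of 1 in T+ Sox2+ relative to Sox2+, 1 instead of 0 in T KO relative to WT at TS12 and 4 instead of 2 in the Tbx6+ pair. A pseudocount of 0.1 gave 2 instead of 1 in T KO relative to WT at TS13, and a pseudocount of 5 gave 1 instead of 2 in the Tbx6+ pair. Etv2 in WT T+ cells, 1 call between stages, was lost with a pseudocount of 5 (0 calls, difference 0.74) and with upper-quartile scaling (0 calls, difference 0.99). The limma call of Lmo2 became 0 calls with stage left out, without trend and without any 1 of the 4 libraries (0 calls each; 3 of these 4 fits were chosen after seeing the data). Cells with any of the 10 genes numbered 37 instead of 44 at 10 FPKM. Of 445 values of single genes under other settings, 6 changed sign, none of them called: Etv2 in the limma fit of genotype without the T+ WT TS13 library (0.24 instead of -0.28), 2 under upper-quartile scaling (Flt1 at TS13 and Gata2 at TS12, both near 0) and 3 at TS12 with the T+ WT TS13 library in place of the T+ WT TS12 library, an alternative chosen after seeing the data. With that library Etv2 was at -0.86, Gata2 at -0.28 and Flt1 at -0.19, and still 0 of the 10 genes were called. Over all genes, the limma fit of genotype called 54 higher and 70 lower in T KO, against 34 and 48 with upper-quartile scaling, 34 and 53 with a pseudocount of 5, 4 and 17 with stage left out, and 0 to 5 higher and 6 to 16 lower without 1 library. The fit of stage called 16 higher and 5 lower at TS13, against 9 and 4 with upper-quartile scaling, 8 and 4 with a pseudocount of 5, and 1 and 0 with genotype left out. Values below 1 FPKM rest on few fragments, and FPKM of cells carry no depth, so cells in which a gene was missed cannot be told from cells without it.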
